A study of Mus musculus with 48 samples.

Results

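The 100 features that took the largest share of the RNA counts are described here in AML12 cells, an immortalised line of mouse hepatocytes, with and without Bmal1. A feature is a row of the deposited count table. The share of counts of every row was its count divided by the total of the library, and the 100 rows with the highest mean share over all 48 libraries are called members. They were 100 of 32377 rows, all 100 passed the filter on low counts, and they are named by rank, with rank 1 for the highest mean share. The members were thus chosen by their level, which is given as a description with no test. Differences between genotypes and between times were not used directly. A row high in a single genotype could still enter through its mean over both. Rank 99 took 0.0970% and rank 100 took 0.0955% of counts, and the next rows outside the list took 0.0954% and 0.0952%.

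Wild-type cells (control, written WT) and Bmal1-KO cells (written KO) were compared by bulk SmartSeq3, a full-length RNA-seq method for small amounts of RNA. All cells of both genotypes were grown with insulin, transferrin, selenium and dexamethasone, a synthetic glucocorticoid, and received a dexamethasone pulse that aligns the clocks of the cells. There were 12 groups of 4 libraries, one for each genotype at 18, 24, 30, 36, 42 and 48 h, the number in the titles being read as hours. Whether the KO cells were 1 clone or several, and whether the 4 libraries came from separate cultures, was not given in the sources used here, so p-values here speak only of how libraries of a group vary, which can be technical variation. WT libraries carried number 16 up to 30 h and 17 from 36 h, and KO libraries 18 and 19, so that an effect of genotype cannot be told apart from one of library number, nor the step from 30 to 36 h from the change of number.

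BMAL1 pairs with CLOCK to drive transcription of clock genes and of many output genes in a daily cycle. In most mammalian cells a short list of transcripts takes a large part of all messenger RNA. Ribosomal proteins, translation factors, cytoskeletal proteins, glycolytic enzymes, ferritin chains and mitochondrially encoded subunits of the respiratory chain are typically among them, and hepatocytes add secreted plasma proteins. These transcripts are mostly long-lived, and their sum sets how much of a sequenced library is left for all other genes. The files do not pair rows with gene names, so which of these classes each member belongs to is not known here, and neither Bmal1 nor markers of hepatocytes or of other cell types could be looked up. Counts were not divided by length, so a rank orders counts and not molecules.

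Library totals ran from 72398 to 795991 counts. The 3 libraries under 100000 counts (WT 18 h replicate 2, WT 24 h replicate 2 and KO 48 h replicate 3) also stood apart in the members, and results that they move are given with and without them. Members had many counts even so. The median count per library ran from 329.5 to 3700 between members, and the lowest single value was 13. Libraries of the same group differed by more than sampling noise in all 72 pairs (largest chi-square p = 5.43e-10), and each was kept as a sample.

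The members together held 20.4% of all counts, and a few of them held much of that. Rank 1 alone took 0.962%, 10.1 times the share of rank 100. The first 10 held 6.57% and the first 50 held 14.7%, and 24 members were enough to reach 50% of the sum over the list. Only 8 members exceeded 0.5%, and 25 exceeded 0.2%. Membership held more often at the top of the list than at its bottom. There were 30 members among the 100 highest rows of every one of the 48 libraries, 21 of them within ranks 1 to 25 and 0 within ranks 76 to 100, whose median was 29 libraries. In all, 221 different rows reached the 100 highest somewhere. In the 45 libraries over 100000 counts, 49 members were among the 100 highest of every library, all of the first 25 among them, and 172 rows reached the 100 highest. A ranking on WT libraries alone shared 89 rows with the list, and one on KO libraries alone shared 93. Rank 1 was the highest row in 12 of 24 WT and 19 of 24 KO libraries.

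**Figure D1:**
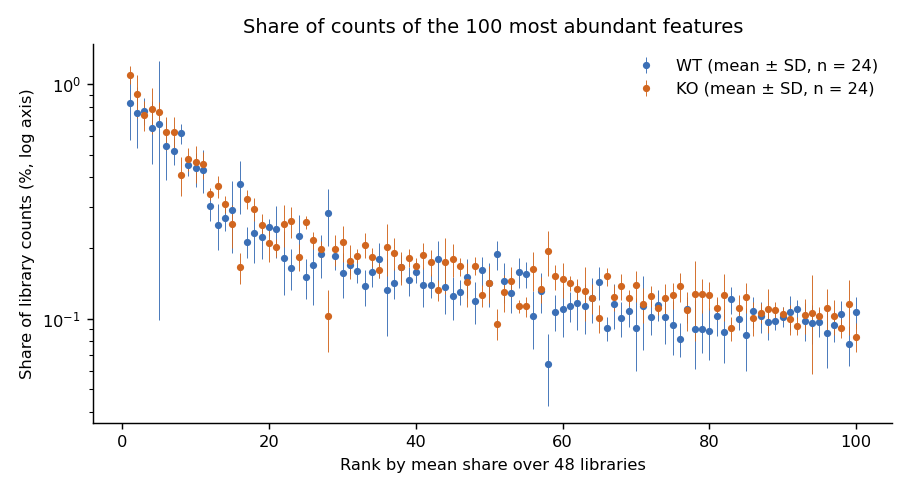
Share of library counts (percent, log axis) of each member against its rank, as mean ± SD over 24 WT (blue) and 24 KO (orange) libraries. Shares drop about 10-fold from rank 1 to rank 100, KO points lie above WT points for 75 members, and ranks 16, 28 and 58 show the widest gaps between genotypes.

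KO cells spent more of their counts on these transcripts. The summed share was 16.5% in the lowest, 19.4% on average (SD 1.09, n = 24) and 21.6% in the highest WT library, against 20.1%, 21.4% (SD 0.960, n = 24) and 24.6% in KO. The difference was 2.01 percentage points, a ratio of 1.10, and 19 of 24 WT libraries lay below every KO library. No p is given for a sum over chosen members. Genotypes did not overlap at 18, 24, 36 and 42 h and did overlap at 30 and 48 h. At 18 h the sum was 18.6% ± 1.44 in WT and 21.6% ± 0.653 in KO (SD, n = 4), the widest gap of the 6 times at 3.01 points. At 30 h it was 19.3% ± 0.861 and 20.5% ± 0.321 (SD, n = 4), the narrowest at 1.20 points. This order of the times depended on shallow libraries. WT 18 h replicate 2 had 16.5%, where the others of its group had 19.2% to 19.6%. KO 48 h replicate 3 had 24.6%, where the others had 20.4% to 22.3%. Without these libraries 18 h was no longer the widest gap and 30 h no longer the narrowest. The 3 shallow libraries held the lowest WT and the highest KO value. Without them the sums were 19.5% ± 0.897 (SD, n = 22) and 21.2% ± 0.688 (SD, n = 23), a difference of 1.69 points. The excess was not carried by the very top of the list: ranks 1 to 10 went from 6.25% to 6.89% and ranks 11 to 100 from 13.1% to 14.5%, ratios of 1.10 and 1.10.

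**Figure D2:**
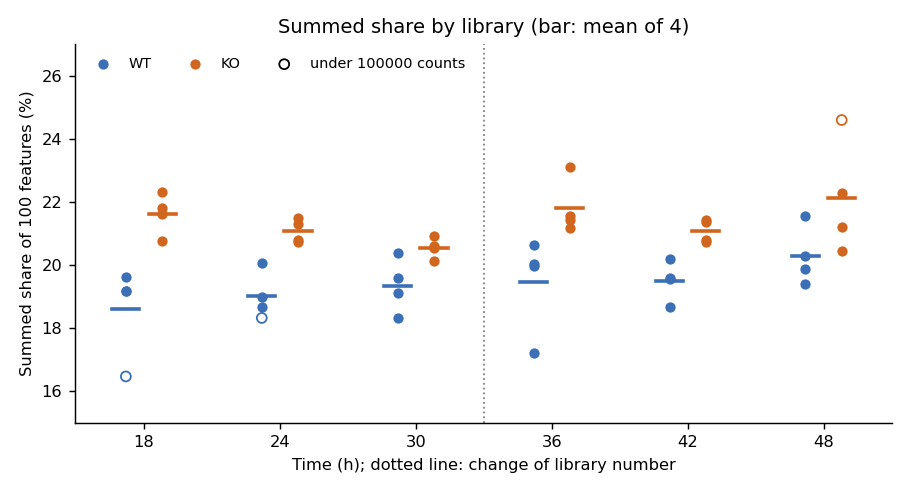
Summed share of the 100 members (percent of library counts) in each library by time in hours, for WT (blue) and KO (orange), with a bar at the mean of 4 libraries and open circles for libraries under 100000 counts. The dotted line marks the change of library number. KO libraries lie above all WT libraries of the same time at 18, 24, 36 and 42 h.

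Gains and losses were spread over many rows. The mean share was larger in KO for 75 members, which added 3.23 points, and smaller for 25, which removed 1.22 points. The 5 largest gains made up 0.797 points and the 5 largest losses 0.732 points of these sums, so the losses were more concentrated in a few members than the gains. Rank 1 gained the most, 0.262 points, followed by rank 2 with 0.153. Ranks 16 and 8 lost the most, with share differences of -0.208 and -0.205 points.

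The change of each member between genotypes was tested on counts scaled by TMM, which sets the typical change of all features near 0, with the average over the 6 times in one fit of all groups (edgeR quasi-likelihood, Benjamini-Hochberg over 8617 tested features). At an adjusted p under 0.05, 62 members rose and 16 fell in KO, and 22 did not pass. Among all tested features 23% were called higher, 22.8% lower and 45.7% in either direction. The median log2 change of the members was 0.24, against -0.0072 over all tested features. With library totals as the only scaling, 54 members rose and 18 fell, and leaving out the 3 shallow libraries gave 65 and 17. The lean also depends on how the list is drawn: 100 rows ranked on WT libraries alone had 51 rises and 25 falls, and 100 ranked on KO libraries alone had 69 and 10. Within the early library numbers (18 to 30 h) 58 rose and 12 fell, where 15.5% and 14.1% of tested features did (29.6% in either direction), and within the late ones (36 to 48 h) 54 rose and 13 fell, where 18.2% and 16.4% did (34.6% in either direction).

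**Figure D3:**
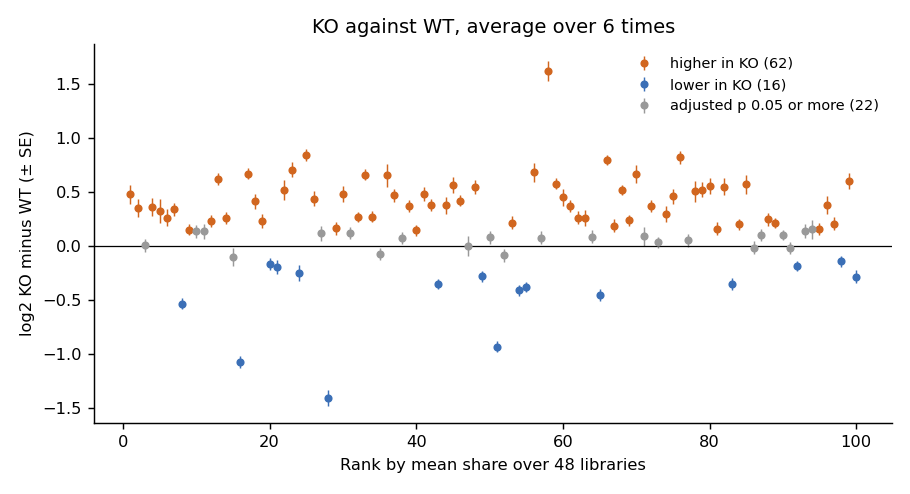
log2 change KO minus WT, averaged over the 6 times, with its SE, for each member against its rank. Orange members (62) rose, blue members (16) fell and grey members (22) had an adjusted p of 0.05 or more. Of the 100 points 78 lie above 0, rank 58 is the highest at 1.62, and ranks 28 and 16 are the lowest at -1.40 and -1.07.

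Most of these changes were small. The median rise among the called members was 1.32-fold and the median fall 1.27-fold. A called change of 1.5-fold or more was found for 12 members that rose and 3 that fell, beside 6.14% and 6.68% of all tested features (12.8% together), so that the total of 15 is near the background. One of 2-fold or more was found for 1 and 2, beside 0.847% and 1.73% (2.58% together). Tested against a minimum change of 1.5-fold, 4 members were higher and 3 lower, where 1.85% and 2.32% of all tested features were (4.17% together). Direction was the same at all 6 times for 70 members, 57 of them higher and 13 lower. Precision was better than elsewhere in the table, since the median SE of the log2 change was 0.059 for members and 0.11 over all tested features, and more calls are therefore made among members at the same size of change.

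The lean toward higher levels in KO became weaker as features became less abundant. Among ranks 1 to 10, 7 were called higher and 1 lower. In the other 90 members the counts were 55 and 15. The 100 features that followed just outside the list had 51 higher and 20 lower, and their median log2 change was 0.15. In the next 300 features the median was 0.13 with 146 higher and 63 lower, in the next 500 it was 0.064 with 190 and 126, and in the next 1000 it was 0.042 with 316 and 234. The remaining 6617 tested features had 1214 higher and 1504 lower and a median of -0.034. Their summed share fell by 2.14 points, from 31.5% to 29.4%, while that of the members rose by 2.01. Shares of one library sum to a fixed total, so a rise in the one and a fall in the other are not independent.

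**Figure D4:**
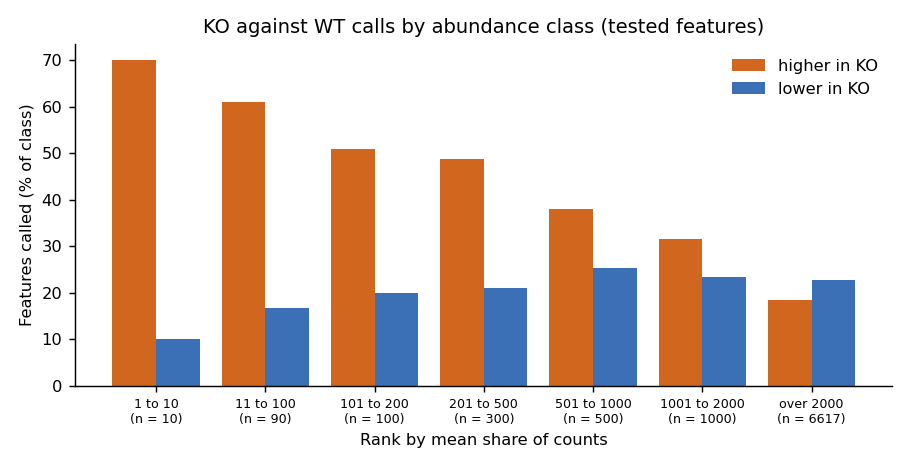
Percentage of tested features called higher (orange) or lower (blue) in KO in 7 classes of rank by mean share, with the number of features under each class. The orange bars shorten steadily from ranks 1 to 10 to the class of lowest abundance, where the blue bar is the taller one.

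The largest rise was that of rank 58, row 4876 of the table. Its share was 0.0282% in the lowest, 0.0634% in the median and 0.112% in the highest of 24 WT libraries, and 0.119%, 0.198% and 0.283% in KO. All KO libraries lay above all WT libraries. Its WT means at single times ran from 0.0546% to 0.0765%, below the 0.0955% of rank 100. Rank 58 was thus a member through its KO level, and its rise is not independent of the choice. The log2 change was 1.62 (SE 0.09, 3.07-fold, adjusted p = 3.79e-24, edgeR), with values from 1.40 at 18 h and 30 h to 2.00 at 48 h, each called. The next row of the table was far less abundant and moved the same way, with 7 counts over the WT and 216 over the KO libraries. Whether the neighbouring rows share reads was not tested.

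Rank 25, row 26126, had the second largest rise among members. Its share was between 0.0760% and 0.204% in WT with a median of 0.148%, and between 0.224% and 0.288% in KO with a median of 0.260%. Again no KO library reached down to a WT library. The log2 change was 0.84 (SE 0.06, 1.79-fold, adjusted p = 5.04e-21, edgeR), from 0.71 to 1.01 at the single times. Its next row rose as well, by a log2 change of 0.73 (adjusted p = 3.21e-12, edgeR).

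Rank 28, row 28310, fell most. WT libraries held 0.109% to 0.474% of counts in it, with a median of 0.271%, and KO libraries 0.0470% to 0.187%, with a median of 0.0993%. The genotypes overlapped only through the shallow WT 24 h replicate 2, at 0.109%. All other WT libraries held 0.195% or more, above every KO library. The change was called at every time. In KO it was 2.64-fold lower, a log2 change of -1.40 (SE 0.07 and adjusted p = 5.45e-27 by edgeR), and went from -1.10 at 18 h to -2.03 at 48 h.

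The second largest fall, in rank 16 (row 16638), was also the largest loss of counts. Its share ran from 0.225% to 0.558% in WT, median 0.377%, and from 0.119% to 0.223% in KO, median 0.164%. The highest KO library was just below the lowest WT library. The log2 change was -1.07 (SE 0.05, adjusted p = 4.92e-28, edgeR), or 2.10-fold lower in KO. Rank 8, the only one of the 10 most abundant members that fell, went from a WT median of 0.615% (0.507% to 0.718%) to a KO median of 0.389% (0.316% to 0.663%), and its log2 change was -0.53 (SE 0.05, adjusted p = 2.90e-14, edgeR).

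Over the whole series 6 members had no overlap between the 24 WT and the 24 KO libraries, ranks 25, 58 and 66 being higher and ranks 16, 51 and 54 lower. Among all tested features 0.313% had no overlap (0.139% higher and 0.174% lower). At an adjusted p under 0.05, 8 members were called higher at all 6 times (ranks 17, 25, 33, 58, 59, 66, 68 and 76) and 3 lower (ranks 16, 28 and 51), where 0.87% and 0.696% of tested features were (1.57% together). No member was called in both directions at different times. A member with a large change can have entered the list through the genotype where it was high, as rank 58 did. This applies most to members low in the list, such as ranks 66 and 76, with log2 rises of 0.80 and 0.82. The counts in this paragraph are therefore not independent of the choice of members. Ranks 51, 54, 66 and the others in these lists were singled out after their values had been seen.

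With all libraries, ranks 1 to 5 had smaller changes than ranks 8, 16, 25, 28 and 58. Some changes among ranks 1 to 5 depended on time or on single libraries. As a class the first 10 did not differ less than the rest, with a median absolute log2 change of 0.33 against 0.29 for the other 90. Rank 1 had a WT median of 0.872% (0.231% to 1.19%) and a KO median of 1.10% (0.962% to 1.34%), and its log2 change was 0.48 (SE 0.09, adjusted p = 5.55e-06, edgeR). From 18 to 30 h alone the change was 0.74 (adjusted p = 2.60e-06), and from 36 to 48 h it was 0.22 and did not pass (adjusted p = 0.170). Over all times but without the 3 shallow libraries it was 0.39 (adjusted p = 1.58e-09). In those 45 deeper libraries the change was 0.60, 0.60 and 0.51 at 18, 24 and 30 h. At 36, 42 and 48 h it was 0.35, 0.17 and 0.083. Rank 3 showed no difference that could be told from the spread, with medians of 0.788% in WT (0.460% to 0.879%) and 0.742% in KO (0.563% to 1.12%) and an estimated log2 difference of 0.0093 (SE 0.060, adjusted p = 0.916, edgeR). The sign of that estimate turned to -0.067 with library totals as the only scaling.

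Rank 5 depended on 2 shallow libraries. WT 24 h replicate 2 gave it 3.22% of counts and WT 18 h replicate 2 gave 1.43%, while the other libraries of these groups had 0.496% to 0.585%. The WT median was 0.524% and the KO median 0.746% (0.624% to 0.936%). With all libraries the log2 change was 0.32 (SE 0.11, adjusted p = 0.0124, edgeR). It was 0.60 (adjusted p = 1.37e-23) when the 3 shallow libraries were left out, and 0.25 (adjusted p = 0.0504) with library totals as the only scaling. From 18 to 30 h alone it was -0.017 (adjusted p = 0.950), and from 36 to 48 h alone 0.66 (adjusted p = 4.76e-04). At 24 h the value with all libraries was -0.67 (SE 0.27) and was not called (adjusted p = 0.103).

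Ranks 2, 4 and 6 stood in 3 consecutive rows of the table, the only such run among the members. Rank 2 had a WT median of 0.739% (0.427% to 1.49%) and a KO median of 0.844% (0.698% to 1.36%), and rank 4 had 0.641% (0.340% to 1.31%) and 0.739% (0.605% to 1.19%). Their log2 changes were 0.35 (SE 0.08, adjusted p = 2.52e-04) and 0.37 (SE 0.08, adjusted p = 1.77e-04, edgeR), and rank 6 had 0.27 (adjusted p = 0.00428). From 36 to 48 h alone ranks 2 and 4 were at 0.22 and 0.22 and did not pass (adjusted p = 0.128 and 0.135). The ratio of rank 2 to rank 4 was 1.16 with an SD of 0.0314 over the 48 libraries, and counting alone would give an SD of 0.0349. Both rows thus kept one ratio to within counting error, although each varied widely between libraries. The ratio of rank 2 to rank 6 varied far more, with an SD of 0.267 where counting would give 0.0438. Whether ranks 2 and 4 are near-identical copies or overlapping genes that share reads was not tested, so they are reported as uncertain.

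At single times, with 4 libraries against 4, more members rose than fell at every time. At 18 h 27 rose and 9 fell, where 4.32% of tested features rose and 3.5% fell (7.82% together). At 24 h the members' counts were 29 and 9, beside 5.73% and 4.89% (10.6%), and at 30 h 12 and 8, beside 4.84% and 4.4% (9.24%). At 36 h they were 16 and 5, beside 2.97% and 2.55% (5.52%), at 42 h 26 and 6, beside 8.97% and 7.29% (16.3%), and at 48 h 34 and 7, beside 8.98% and 8.47% (17.5%). The median log2 change of the members lay between 0.19 at 42 h and 0.28 at 18 h, and 71 to 78 members were above 0 at each time. When the 3 shallow libraries were left out 38 members were called at 30 h in place of 20, and 41 at 36 h in place of 21. None of these 3 libraries belongs to 30 or 36 h, so they act there only through what the fit shares across groups.

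Within a genotype, fewer members were called between times than between genotypes. These tests differ in power, so the counts do not show that differences between times were fewer. Any difference between the 6 times was called for 16 members in WT and 4 in KO, where 4.77% and 0.963% of tested features were (edgeR F test, Benjamini-Hochberg), and in the 45 deeper libraries for 26 and 10, beside 5.39% and 1.63%. The 16 included ranks 1, 2, 4, 5, 13, 16 and 28, and the 4 were ranks 8, 28, 88 and 94. Rank 8 rose in KO from 0.343% ± 0.0174 at 18 h to 0.528% ± 0.0952 at 48 h (SD, n = 4, adjusted p = 0.00101, edgeR), and its log2 difference to WT was -0.64 at 18 h and -0.23 at 48 h, the second of which did not pass (adjusted p = 0.194). One of the 4 KO values at 48 h, 0.663%, came from the shallow replicate 3. The other 3 had a mean of 0.483% ± 0.0373 (SD), and in the 45 deeper libraries the difference to WT at 48 h was -0.41 (SE 0.094, adjusted p = 7.83e-04, edgeR) beside -0.60 at 18 h, while the difference between times in KO was called again (adjusted p = 3.65e-05). Rank 88 took 0.133% ± 0.00900 at 30 h and 0.0821% ± 0.0271 at 48 h in KO (SD, n = 4, adjusted p = 0.0421, edgeR). Its lowest value at 48 h, 0.0424%, was again that of the shallow replicate 3, without which the mean was 0.0953% ± 0.00728 (SD, n = 3) and the adjusted p in the 45 deeper libraries was 0.0104 (edgeR).

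Times on either side of the change of library number were also compared as 2 blocks. The mean of 36 to 48 h minus that of 18 to 30 h was called for 18 WT members, 8 higher and 10 lower (1.74% and 2.77% of tested features, 4.51% together), and for 7 KO members, 4 higher and 3 lower (0.894% and 1.28%, 2.17% together). In the 45 deeper libraries it was called for 24 and 8. In rank 1 this difference was 0.54 (SE 0.13, adjusted p = 0.00458) in WT and 0.014 (SE 0.12, adjusted p = 0.982) in KO. The shallow WT libraries at 18 and 24 h had 0.231% and 0.232% of counts in rank 1, against 0.612% to 0.897% in the others of their groups, and in the 45 deeper libraries the WT value was 0.37 (SE 0.075, adjusted p = 5.61e-04, edgeR). In rank 28 it was -0.033 (SE 0.097, adjusted p = 0.912) in WT and -0.56 (SE 0.10, adjusted p = 4.59e-04) in KO (edgeR). Within one library number, the 3 early times differed for 1 member in WT (rank 5) and 0 in KO, where 0.406% and 0.0232% of tested features did, and the 3 late times for 2 in WT (ranks 16 and 49) and 0 in KO, where 0.754% and 0.0116% did. At an unadjusted p under 0.05 these tests gave 16 and 17 members in WT and 7 and 9 in KO. In the 45 deeper libraries the early times differed for 3 members in WT and 1 in KO, and the late times for 10 and 0, beside 0.459%, 0.246%, 1.33% and 0.0224% of tested features. These tests over 3 groups and the comparison of blocks differ in power, and their counts were not tested against each other. Rank 5 rests on the 2 shallow libraries named above. Without WT 30 h replicate 2, 3 or 4 the early WT count was 0, and without 7 other single WT libraries it was 2. The late WT count became 1 without any single library of those times other than WT 36 h replicate 2. DESeq2 was not run on these tests within a library number.

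**Figure D5:**
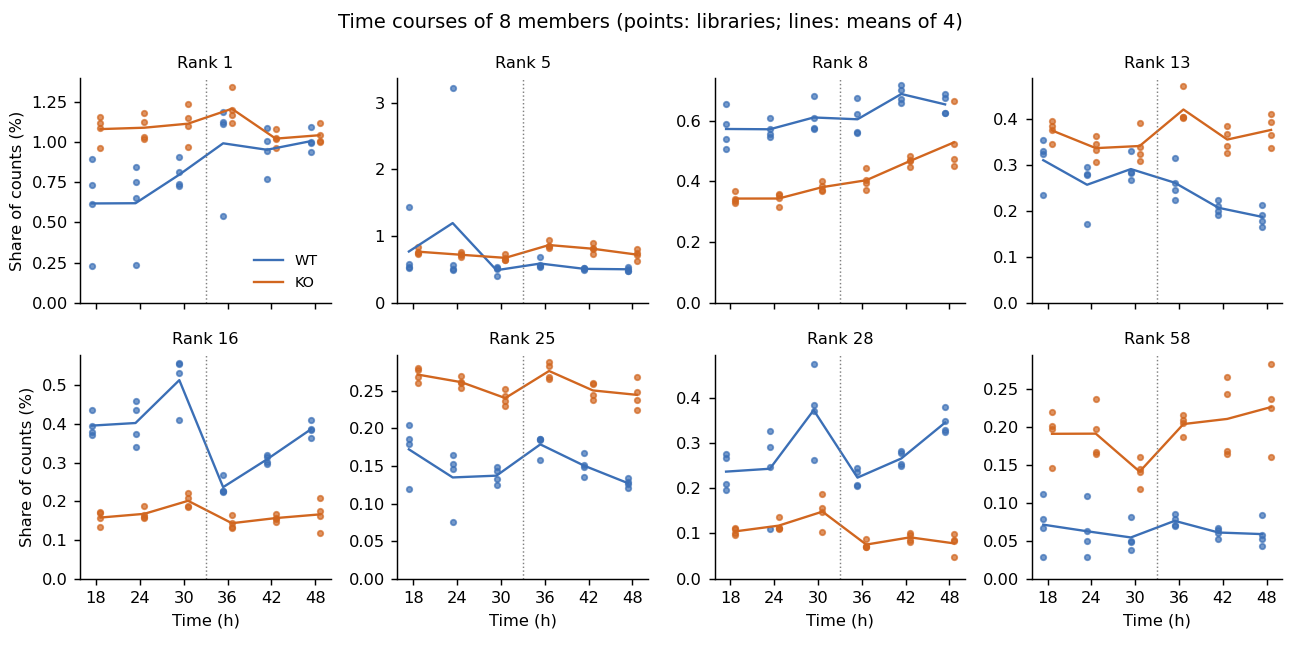
Share of library counts (percent) by time in hours for ranks 1, 5, 8, 13, 16, 25, 28 and 58, with a point for each library and lines through the means of 4, WT in blue and KO in orange. The dotted line marks the change of library number. Ranks 16 and 28 are lower and ranks 25 and 58 higher in KO at every time, rank 8 in KO is nearest to WT at 48 h, where its highest point is the shallow replicate 3, and rank 5 has 1 WT library at 3.22% at 24 h.

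A wave of 24 h passed the test for a single member in WT, which was rank 16 (1 of 100), for 0 of the members in KO, and as a difference between genotypes for 0, where 0.383%, 0.0116% and 0% of tested features were (edgeR quasi-likelihood). At an unadjusted p under 0.05 there were 16, 11 and 2 members. By DESeq2 6 WT waves, 1 KO wave and 0 differences passed. The fit on the 45 deeper libraries had 7 WT waves and 1 KO wave. Leaving out WT 24 h replicate 2 alone gave 4 WT waves, WT 18 h replicate 2 alone gave 2, and replicate number 1, 3 or 4 gave 0.

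The wave of rank 16 had a fitted peak at 26.5 h and a range of 1.64-fold in WT (adjusted p = 0.00613, edgeR). Its 4 WT libraries at 30 h were at 0.409%, 0.531%, 0.556% and 0.558%, and those at 36 h at 0.268%, 0.227%, 0.227% and 0.225%. The highest and the lowest WT means thus stood next to each other, on either side of the change of library number. Within the late number its WT mean rose from 0.237% ± 0.0211 at 36 h through 0.309% ± 0.0114 at 42 h to 0.386% ± 0.0190 at 48 h (SD, n = 4, adjusted p = 8.74e-04 for the 3 times, edgeR). In KO the fitted range was 1.24-fold with a peak at 27.9 h and did not pass (adjusted p = 0.566), and the waves of the genotypes were not shown to differ (unadjusted p = 0.0960 and adjusted p = 1.00, edgeR). The smallest p for a KO wave belonged to rank 10, which peaked at 20.8 h and spanned 1.54-fold in the fit (adjusted p = 0.116, edgeR), and its WT wave had 1.23-fold and 21.3 h (adjusted p = 0.603).

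Only rank 13 (1 member) had an interaction of genotype and time, where 0.371% of tested features were called (adjusted p = 0.0477, edgeR). Its share in WT was 0.310% ± 0.0524 at 18 h and 0.186% ± 0.0210 at 48 h, and in KO 0.374% ± 0.0210 and 0.375% ± 0.0332 (SD, n = 4). The log2 change was 0.35 (SE 0.14) at 18 h, not called (adjusted p = 0.108), and 1.08 (SE 0.14, adjusted p = 8.12e-09, edgeR) at 48 h. The call was close to the threshold and unstable: in 41 of 52 runs that left out 1 library or 1 replicate number, 0 members had an interaction. With the 45 deeper libraries 6 members had one, and 0 did when only differences within a library number were tested.

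Members also varied together between libraries of the same group. After the mean of each group was removed, the median SD of a member's log2 CPM was 0.22, while counting would give 0.078. One component held 58.5% of this variation, and the 3 libraries farthest along it (the shallow WT libraries at 18 and 24 h, and WT 24 h replicate 1, which had 552494 counts) made up 59.9% of it. Positions along it cancel out within a group, so WT 24 h replicate 1 (3.61) is not independent of the shallow replicate 2 (-6.34). Of the 4950 pairs of members, 14.3% had a correlation over 0.7, and 10.1% of pairs among the next 100 features did. In the 45 deeper libraries the SD was 0.14, the component held 49.2%, and 5.76% and 4.91% of pairs exceeded 0.7. These are descriptions over libraries that share depth and scaling.

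Members that rose in KO had the highest median correlation with each other. The median correlation was 0.37 among pairs of the 62 members called higher, 0.090 among the 16 called lower and 0.042 among the 22 not called. In the 45 deeper libraries it was 0.28, 0.091 and 0.032, and in the 43 libraries over 150000 counts, a limit set after seeing the data, 0.22 for the risers and 0.13 for the fallers, with the others close to 0. Across the 100 members, the loading on the common component and the log2 change KO minus WT had a Pearson r of 0.35 and a Spearman rho of 0.41 with all libraries and 0.38 and 0.44 without the shallow ones. Features are not independent replicates, and this is a description. The part of this common variation in the difference between genotypes was not tested.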

How the data were processed

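The deposited table holds counts that the authors made per row; per the file headers they come from accepted, sorted and deduplicated alignments, and per the submitters' processing notes from STAR 2.5.4b with the mm10 (GRCm38) build. Counter, annotation, strand setting and use of molecular identifiers are not given in the sources used here. Of 180 columns, 48 matched a sample by library name and 132 were not used in any step. Members and lists were chosen with earlier results of these data known.

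Counts were tested with edgeR 4.0.16 (R 4.3.3): filterByExpr (minimum count 10, minimum total 15) kept 8617 features holding 97.3% of counts, TMM factors were computed, and 1 mean was fitted for each of 12 groups. Waves were fitted in a second model with a mean, cosine and sine of period 24 h per genotype. Tests were two-sided and adjusted over all tested features. SE is the log2 change divided by the root of F. The fits were tested on simulated data. Alternatives included DESeq2 1.42.0, other scalings, thinned counts and left-out libraries. The contrast of late with early times and the comparison by abundance class and of neighbouring rows were added after the data had been seen. So was the description of common variation. The values in the 45 deeper libraries for ranks 1, 8, 28 and 88 and for the list itself were also added then.

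Members were named by a rule: ranks 1 to 5, the 2 largest called rises and falls of constant sign, the 2 largest gains and losses of share, and the smallest p of each time test. Row numbers are printed for few members because rows carry no gene names. Gene lists and marker lists could not be looked up and are not analysed here. Intervals from counting cover counting error only.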

Additional observations from a re-analysis of the deposited data

Results flagged for a closer look

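In 17 of 180 sets of 4 libraries (the summed share and 14 members in 12 groups), 1 library stood well apart from its group. Chance alone does this in about 1 in 20 sets, which makes 9 here. The summed share was 16.5% in WT 18 h replicate 2, against 19.2% to 19.6% in the others of its group. In the same library rank 3 was at 0.628% (others 0.766% to 0.789%) and rank 5 at 1.43% (0.515% to 0.585%). WT 24 h replicate 2 had rank 5 at 3.22% (0.496% to 0.560%), rank 13 at 0.171% (0.278% to 0.295%) and rank 64 at 0.220% (0.118% to 0.120%). KO 48 h replicate 3 had rank 3 at 1.12% (0.734% to 0.756%) and rank 64 at 0.153% (0.114% to 0.120%). These 3 libraries are the shallowest of the series.

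Other libraries stood apart in 9 sets. KO 36 h replicate 2 had rank 2 at 1.36% (others 0.746% to 0.783%) and rank 4 at 1.18% (0.637% to 0.667%). WT 36 h replicate 4 had rank 1 at 0.542% (1.11% to 1.19%) and rank 25 at 0.158% (0.184% to 0.187%). KO 36 h replicate 1 had rank 13 at 0.472% (0.401% to 0.403%) and rank 28 at 0.0888% (0.0701% to 0.0727%). KO 24 h replicate 3 had rank 4 at 0.687% (0.739% to 0.746%) and rank 28 at 0.136% (0.110% to 0.112%). WT 36 h replicate 1 had rank 16 at 0.268% (0.225% to 0.227%).

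The effect of genotype on rank 13 differed between times, with an interaction adjusted p of 0.0477 (edgeR quasi-likelihood).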

How the results depend on the processing

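The 62 rises and 16 falls in KO moved by over 1.5 times only as follows. Against a minimum change of 1.5-fold they were 4 and 3, where fewer can pass. Ranking on WT libraries gave 25 falls and on KO libraries 10, since each ranking favours members high in its own genotype. After leaving out 1 library or replicate number, rises were 56 to 64 and falls 13 to 17. The summed share differed by 1.85 to 2.19 points when 1 was left out, by 1.12 points with members ranked on WT and by 2.47 on KO. Whether replicate numbers pair WT with KO libraries is not known. Deviations of same-numbered libraries correlated at over 0.1 in 8 of 24 pairs, with a median of 0.041 and a highest value of 0.31. In 10 of the 24 the best match among the 4 KO libraries of that time carried the same number. With the replicate number as a replicate block there were 64 rises and 16 falls, and the 2 WT members differing between 36, 42 and 48 h became 1; no other count moved by over 1.5 times.

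With 1 library or number left out, calls at 18, 24, 30, 36, 42 and 48 h were 14 to 34, 19 to 45, 14 to 23, 11 to 21, 17 to 31 and 22 to 46. Members differing between times were 5 to 21 in WT and 0 to 7 in KO, interactions 0 to 4, WT waves 0 to 4, and WT differences within 18 to 30 h 0 to 2 and within 36 to 48 h 0 to 3. Single libraries behind this were WT 48 h replicate 2 (9 WT members without it), WT 24 h replicate 2 (7 in KO, 4 WT waves, 3 interactions), WT 18 h replicate 2 (2 WT waves, 2 interactions), WT 36 h replicate 4 (2 interactions) and KO 48 h replicate 3 (2 in KO).

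The remaining changes concern time, and the cause was not tested. Without the 3 libraries under 100000 counts, calls were 38 at 30 h and 41 at 36 h, differences between times 26 in WT and 10 in KO, interactions 6, waves 7 in WT and 1 in KO, and differences within 18 to 30 h 3 in WT and 1 in KO and within 36 to 48 h 10 in WT. With library number as a term in the wave model there were 9 WT waves. When only differences within a library number were tested jointly, 6 and 0 members differed between times in WT and KO. Interactions tested in that way were 0. DESeq2 gave 6 and 1 waves in WT and KO, 12 KO members differing between times and 4 interactions. Without a filter there were 2 and 1 waves, 8 KO members differing between times and 5 interactions. With library totals alone there were 3 WT waves, 2 interactions and 1 WT member differing within 36 to 48 h. Rank 5 was at -0.017 from 18 to 30 h (adjusted p = 0.950, edgeR). Alternatives without libraries under 150000 counts were chosen after seeing the data and gave 64 rises, 18 falls and 1.58 points.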

Other observations

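Neighbouring rows of the table tended to move the same way. Members formed 94 distinct pairs with a tested row directly beside them, and in 47 of these both rows were called between KO and WT, 33 of them (70.2%) in the same direction. Over all tested features with a tested next row, 832 of 3638 pairs had both rows called and 572 (68.8%) went the same way. The share among members is therefore close to that of the whole table. The order of the rows was not stated in the sources used here.

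Of the 4 adjacent pairs within the list, ranks 2 and 4 had a correlation of 0.99 after group means were removed, ranks 2 and 6 of 0.69, ranks 24 and 83 of 0.76 and ranks 53 and 95 of -0.19. Without the 3 libraries under 100000 counts these were 1.00, 0.90, 0.84 and -0.031.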
